A study of Sus scrofa with 23 samples.

Results

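The step from the in vivo morula to the part of the blastocyst that holds the inner cell mass (ICM) was examined here, as 1 library of IV-D morulae against 1 library of IV-D IT. These 2 samples were chosen by their labels from the 23 libraries of the series. All 8603 genes of the deposited table were read in both, and 7143 of them had a level of at least 1 FPKM (fragments counted on a gene, corrected for its length and for library depth) in one of the libraries. The table is named by its authors as one of differentially expressed genes, and the step that chose them is not given in the sources used here, so each count below is a count within it.

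IV-D embryos were fertilized in vivo in Duroc sows inseminated with semen of 1 Duroc boar, and were flushed from the tract. Each IV-D library pooled the embryos of 1 sow, males and females together without sexing, so that sow and stage cannot be told apart. The Duroc donor boar of the clones was also the sire of the IV-D embryos. IT was the piece of a blastocyst, cut by hand with a microsurgical blade, that carried ICM together with trophectoderm (TE), and the TE library was made from the remaining piece of TE alone. The 2 clone groups, NT-D and NT-LW, were made by nuclear transfer from ear fibroblasts of 1 Duroc and 1 Laiwu boar and grown in culture, so that all their embryos were male. With 1 library per condition there was no replicate spread and no test between stages. A transcript was called gained when log2(FPKM + 1) was higher in IT by more than 1, lost when it was lower by more than 1, and the intervals printed with folds are exact 95% intervals that cover counting error only. In such bulk samples, fewer cells of a type and less RNA per cell cannot be told apart.

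Between the morula and the blastocyst, the outer cells of the embryo become a pumping epithelium, the trophectoderm, which encloses a fluid-filled cavity, while the inner cells form the ICM. The ICM then gives rise to the epiblast, the founder of the body, marked by factors such as NANOG, and to the hypoblast, which lines the cavity and is marked by GATA factors and PDGFRA. In the pig this happens well before attachment, and the trophectoderm later elongates and signals to the uterus.

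The blastocyst part carried RNA of both lineages. NANOG, a core factor of pluripotency, was at 7.73 FPKM in morulae, 9.80 in IT and 0 in TE. KLF17, a factor of the naive epiblast in several mammals, was at 12.4 FPKM in morulae, 14.2 in IT and 0.821 in TE. GDF3, a TGF-beta family ligand of pluripotent cells, stood at 12.3, 8.26 and 1.22 FPKM in the same order. These 3 of the 8 fixed ICM markers that the table holds were present at similar levels in morulae and IT and at 1.22 FPKM or less in TE alone, and POU5F1 and SOX2 were not analysed here. KLF17 is a factor that the study named for over 10 FPKM in IT and under 1 in TE, so its contrast follows from that choice. Of the hypoblast markers, PDGFRA, a growth factor receptor, was gained from 4.25 to 11.6 FPKM and was at 0.0614 in TE. GATA6 passed neither limit, with 66.7 FPKM in morulae, 37.7 in IT and 21.4 in TE. GATA4 and LAMA1 were under 1 FPKM in all 3 libraries. The keratins KRT8 and KRT18, filament proteins of the trophectoderm, were at 142 and 199.9 FPKM in morulae, 626 and 627 in IT, and 549 and 582 in TE. IT thus held ICM markers at higher levels than TE alone, together with keratins of the TE.

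In all, 550 transcripts were gained (7.7% of those tested) and 542 were lost (7.59%), while 6051 passed neither limit. Of the gained transcripts 366 reached 10 FPKM in IT and 84 reached 100, and of the lost ones 320 had been at 10 FPKM or more in morulae and 42 at 100 or more. Symbols were known for 470 gained and 443 lost genes. The counting interval of the fold lay wholly above 1 for 550 of the gained transcripts and wholly below 1 for 541 of the lost. The median difference of all tested transcripts was -0.16 on the log2 scale, and scaling the libraries by the median ratio of their genes brought it to 0.01 with 726 gained and 349 lost, while scaling to an equal sum brought it to -0.25 with 546 gained and 838 lost. List medians below are to be read against -0.16, and list counts against the shares gained and lost among all tested. The lists and their members were chosen with earlier results of these data known, so their medians and counts are a description only. Gained transcripts were shorter, with a median length of 2086 bases against 3146.5 for lost and 3089 for all tested. The share gained fell from 14.0% of transcripts under 1000 bases to 3.54% of those from 4000 to 8000 bases, and the part of length in the calls was not tested.

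**Figure D1:**
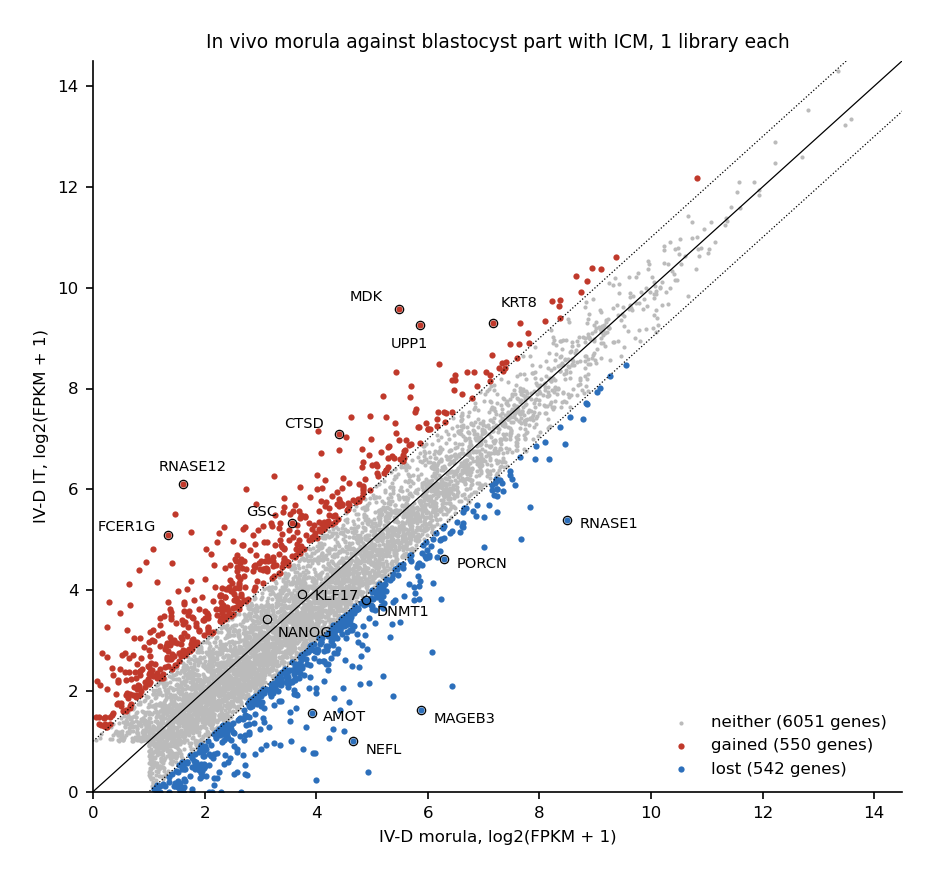
Level of each tested transcript in IV-D morulae (x axis) and IV-D IT (y axis), both as log2(FPKM + 1), with 1 point per gene and 1 library per axis. The 550 gained transcripts lie above the upper dotted line and the 542 lost ones below the lower, while NANOG and KLF17 lie near the diagonal.

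The largest gain was that of RNASE12 (ENSSSCG00000002131, at chr7:78333025-78340906 by RefSeq on Sscrofa11.1), a gene of the ribonuclease A family, from 2.07 to 67.9 FPKM. Its fold was 32.8 with an interval of 23.1 to 48.2, and TE stood at 56.2 FPKM. MDK, the heparin-binding growth factor midkine, was gained from 44.0 to 762 FPKM and was at 848 in TE. UPP1, the uridine phosphorylase of pyrimidine salvage, went from 56.9 to 613 FPKM, with 686 in TE. These 3 transcripts were thus at like levels in both parts of the blastocyst. LXN, the carboxypeptidase inhibitor latexin, had another course, with 82.5 FPKM in oocytes, 5.33 at the 8-cell stage, 1.78 in morulae, 44.4 in IT and 10.2 in TE. A pair of leading transcripts was found in IT and hardly in TE. SLC7A9, the light chain of a transporter of cystine and basic amino acids, went from 0.930 to 22.5 FPKM and was at 0.443 in TE. SDCBP2, a PDZ-domain protein related to syntenin, went from 1.11 to 27.0 FPKM and was at 0.944 in TE. Other leading gains were far higher in TE than in IT. FCER1G, the gamma chain of Fc receptors, was at 1.55 FPKM in morulae, 33.0 in IT and 601 in TE. MGST1, a membrane-bound glutathione transferase, was at 1.68, 22.1 and 980.1 FPKM in that order. The remaining leading gains were APOA1, RENBP, CTSL, ZFAND2A, SLC66A3, VNN1 and CALML5, with 10.7 to 142 FPKM in IT.

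Among genes with a symbol, the largest loss was that of MAGEB3 (ENSSSCG00000012198, chrX:26044502-26055412), a gene of the MAGE family, from 58.1 FPKM in morulae to 2.07 in IT and 2.04 in TE. It had been at 95.8 FPKM at the 8-cell stage, and its fold from morula to IT was 28.1 lower (20.7 to 39.2). RNASE1, the secreted pancreatic-type ribonuclease, was lost from 362 to 41.2 FPKM and was listed at 0 in TE. NEFL, the light subunit of neurofilaments, went from 24.4 to 1.01 FPKM and EFHD1, a calcium-binding protein of mitochondria, from 14.9 to 0.179, both with 0 in TE. The transketolase-like gene TKTL1 went from 40.7 to 2.73 FPKM and MPC1L, a pyruvate carrier gene of germ cells, from 66.5 to 5.84, again with 0 in TE. CYP26A1, the enzyme that breaks down retinoic acid, went from 17.8 to 1.09 FPKM and was at 0.0294 in TE. MAGEB3, EFHD1, TKTL1, MPC1L and CYP26A1 were already lower in morulae than at the 8-cell stage, whereas RNASE1 and NEFL had their highest in vivo level in morulae. PLS3, an actin-bundling protein, was low in IT and not in TE, with 18.6 FPKM in morulae, 1.38 in IT and 14.46 in TE. The other leading losses were LYPLAL1, GSTA4, AMTN, RAP2C, GPT2, ADAD1 and RCN1, with 0.699 to 3.90 FPKM in IT.

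**Figure D2:**
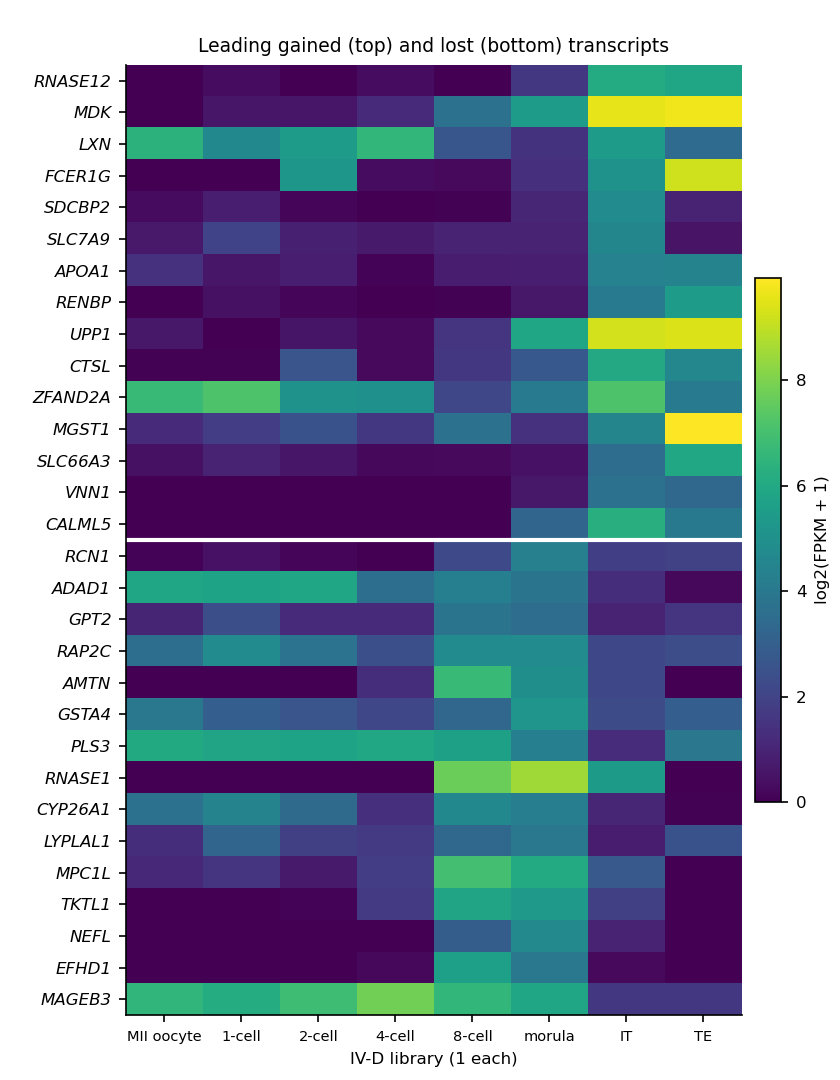
Levels as log2(FPKM + 1), shown by colour, of the 15 leading gained and 15 leading lost transcripts (rows) in the 8 IV-D libraries (columns), 1 library each. Most gained rows are dark up to the morula and bright in IT, and rows such as RNASE1 and NEFL are bright in the 8-cell or morula column and dark in TE.

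Read across development, gained transcripts were low before the morula and lost ones were highest around the 8-cell stage. The median level of the 550 gained transcripts was 0.681 FPKM in oocytes, 2.44 at the 8-cell stage, 5.15 in morulae, 19.8 in IT and 13.8 in TE. Of them 466 were at 1 FPKM or more in morulae (84.7%, against 96.6% of all tested), and 477 were so in TE (86.7%, against 88.1%). Among the other 6 IV-D libraries the highest level was in TE for 360 of the 550 (65.5%, against 26.2% of all tested transcripts). For the 542 lost transcripts the median was 5.96 FPKM in oocytes, 18.5 at the 8-cell stage, 13.2 in morulae, 4.18 in IT and 3.52 in TE. The highest of the other 6 libraries was the 8-cell library for 303 of them (55.9%, against 31.5% of all tested transcripts). The TE level, which comes from a separate library, took several positions. Among gained transcripts it was at or above that of IT for 207, between morula and IT for 186 and under both for 157. Among lost transcripts TE lay under both for 320, between for 194 and at or above the morula for 28. Both sets were chosen by their IT level, which in part fixes where TE falls. The same positions were not counted over all tested transcripts, so these counts are a description only.

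A change from under 1 FPKM to at least 5 was rare. It was met by 18 transcripts (0.252%) upward and by 16 (0.224%) downward. The upward ones with the highest IT levels were SLC7A9, APOA1 and RENBP, the last an X-linked binding protein of renin with N-acetylglucosamine epimerase activity, which went from 0.562 to 16.5 FPKM. TNFSF9, the ligand of the costimulatory receptor 4-1BB, went from 0.115 to 5.69 FPKM on 8 and 366 fragments, a fold of 49.7. DND1, an RNA-binding protein of germ cells, went from 0.885 to 6.37 FPKM, and SLN, a regulator of the calcium pump of the sarcoplasmic reticulum, from 0.190 to 5.37. Both were at 0 in TE. CCDC85A had been expressed earlier, with 43.4 FPKM at the 8-cell stage, 0.196 in morulae, 8.62 in IT and 0.1003 in TE. In the other direction STEAP2, a metalloreductase, went from 9.14 to 0.896 FPKM and NPR3, a clearance receptor for natriuretic peptides, from 8.48 to 0.949. The gene ENSSSCG00000010868, which has no symbol, went from 149 fragments to 0, at least 45.7-fold lower against a floor of 3 fragments. TNFSF9, DND1, SLN, CCDC85A, STEAP2, NPR3 and this gene were picked for naming after their values were seen.

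Trophectoderm genes were the clearest lineage list, with 9 of 17 tested members gained, 1 lost and a median difference of 1.08, against -0.16 for all tested. Their summed level was 1189 FPKM in morulae, 2999 in IT and 2585 in TE. From the morula to TE, however, the median difference of the 17 members was -0.22, against -0.39 for autosomal transcripts. The typical member was thus gained in IT and not in TE alone. AQP3, a channel for water and glycerol, was gained from 9.54 to 45.6 FPKM, a fold of 4.78 (4.45 to 5.13). Some transcription factors of the list were gained from low levels, GATA2 from 1.13 to 7 FPKM, GATA3 from 1.497 to 5.42 and ELF3, an epithelial ETS factor, from 2.28 to 11.07. ID2, an inhibitor of helix-loop-helix factors, went from 3.58 to 15.6 FPKM. PTGES, which makes prostaglandin E2, was already at 552 FPKM in morulae and reached 1322 in IT. AQP3, ELF3 and ID2 were lower in TE than in IT, at 6.35, 2.40 and 2.08 FPKM, while GATA3 was higher in TE, at 14.03. The 1 lost member was GRHL2, a grainyhead factor of epithelia, which went from 13.8 to 3.84 FPKM. TEAD4, the partner of YAP that acts first in this lineage in mice, passed neither limit, with 16.2 FPKM in morulae and 14.3 in IT.

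Of the 16 tested genes of pluripotency and the epiblast, 1 was gained and 2 were lost, with a median of 0.02. DPPA5, an RNA-binding protein of pluripotent cells, was gained from 20.4 to 49.6 FPKM and was at 168 in TE. DPPA2, a chromatin factor active at genome activation, was lost from 149 to 63.1 FPKM, after 271 at the 8-cell stage. ESRRB, an orphan nuclear receptor of naive cells, was lost from 9.15 to 4.02 FPKM, a call that ended with median-ratio or trimmed-mean scaling. The list median turned to -0.24 with an equal sum and to -0.30 with a minimum of 5 FPKM. KLF4 passed neither limit, with 42.8 and 23.6 FPKM, and neither did MYC, with 10.02 and 14.03. Hypoblast genes had 4 of 12 tested members gained and none lost, with a median of 0.44. Apart from PDGFRA these were APOA1 and APOE, apolipoproteins that yolk sac endoderm secretes, and FST, the secreted activin antagonist follistatin. APOE went from 0.425 to 5.55 FPKM and FST from 20.6 to 52.4, with 2.86 and 7.16 in TE. APOA1 was as high in TE, at 20.9 FPKM, as in IT, at 20.2.

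Several signalling genes were higher in IT than in both other libraries. In the NODAL and activin list 4 of 12 tested members were gained and none lost. GSC, a homeobox target of NODAL, went from 10.8 to 39.4 FPKM and was listed at 0 in TE, a fold over morulae of 3.64 (3.17 to 4.19). DRAP1, a repressor of transcription that limits NODAL signalling, went from 38.2 to 86.5 FPKM, and FURIN, the protease that matures such ligands, from 2.59 to 6.63. Genes of early mesoderm and gastrulation had 3 of 6 tested members gained. Besides GSC these were OSR2, a zinc finger factor, from 2.22 to 15.3 FPKM with 0.0363 in TE, and SNAI1, a repressor of E-cadherin, from 9.69 to 23.1 with 0.814 in TE. The other 3 passed neither limit, among them DLX5 and RUNX1T1, with 16.2 and 15.4 FPKM for the former and 43.6 and 29.1 for the latter. The member not named here had the lowest difference of the list, -0.77. GSC, OSR2, SNAI1, DLX5 and RUNX1T1 are among the factors that the study named for over 10 FPKM in IT and under 1 in TE. That choice used IV-D embryos, so their high IT and low TE levels follow from it. In the cytokine list 4 of 16 tested members were gained and 2 lost. SOCS1, a feedback inhibitor of JAK kinases, went from 18.5 to 57.1 FPKM and was at 0.0804 in TE. CISH, another inhibitor of that family, BCL3, a cofactor of NF-kappaB, and IL6R, the receptor of interleukin 6, were gained to 2.85, 15.8 and 3.21 FPKM. BCL3 was also among the factors that the study named by that rule. The ligand IL6 was lost from 136 to 50.4 FPKM and was at 107 in TE.

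In the FGF and ERK list 3 of 21 tested members were gained, and all of these were immediate early genes. FOS went from 23.1 to 68.8 FPKM, JUN, its partner in AP-1, from 12.2 to 43.8, and IER2 from 12.04 to 41.9. TE stood at 1.99, 3.55 and 4.32 FPKM for them. SPRY4 and FRS2, an inhibitor and an adaptor of FGF receptor signalling, were lost, the first from 2.89 to 0.248 FPKM. The BMP list had 2 of 15 tested members gained, ID2 and MSX1, a homeobox factor that went from 0.499 to 3.62 FPKM. The WNT list had 2 of 14 gained, the receptor FZD3 and the scaffold AXIN1, and 1 lost. The lost one was PORCN, which attaches the lipid that WNT ligands need for secretion and which is X-linked. It went from 77.3 to 23.5 FPKM and was at 0.0674 in TE. In the Hippo list 3 of 17 tested members were gained and 2 lost. CCN1 and CCN2, matricellular targets of YAP, went from 5.20 to 12.2 and from 5.16 to 11.9 FPKM. AMOT, an X-linked scaffold that holds YAP at junctions, was lost from 14.2 to 1.95 FPKM, and the kinase LATS1 from 3.50 to 1.22, the latter call ending with median-ratio or trimmed-mean scaling. The medians of these lists lay between -0.06 and 0.06, and apart from that of WNT their signs depended on the scaling. BMP and Hippo became 0.08 and 0.11 with median-ratio scaling, and NODAL and FGF -0.07 and -0.06 with an equal sum. With a minimum of 5 FPKM WNT became -0.44 and BMP 0.65. The medians of the cytokine and mesoderm lists were 0.61 and 0.55, the latter falling to -0.16 with an equal sum.

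Of 27 tested lysosomal genes 13 were gained (48.1%, against 7.7% of all tested) and none lost, with a median of 0.94. The cathepsins, proteases of the lysosome, led, with CTSL from 5.66 to 63.2 FPKM and CTSD from 20.1 to 136. CTSC went from 19.7 to 51.0 FPKM. HEXA, which cuts terminal sugars from gangliosides, went from 15.2 to 63.4 FPKM, a fold of 4.16 (3.89 to 4.46). The sialidase NEU1, its protective partner CTSA and the galactosidase GLB1, which form 1 complex, went from 12.9 to 43.2, from 1.602 to 7.45 and from 116 to 264 FPKM. NPC2, which carries cholesterol out of the lysosome, went from 88.3 to 287 FPKM and was at 1000.3 in TE. The summed level of the list was 1070.1 FPKM in morulae, 2162 in IT and 3714 in TE. CTSL, CTSD and CTSC were higher in IT than in TE, which stood at 23.5, 52.2 and 6.55 FPKM.

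Many lysosomal genes are known to share a short promoter element, the palindrome CACGTG within a longer consensus, which is bound by TFEB and related factors. The 250 bases before the RefSeq gene start were therefore read from Sscrofa11.1 for 5747 tested genes, and the element was found in 480 of these (8.35%), counted on both strands, which are the same for a palindrome. It was found in 3 of the 13 gained lysosomal genes and in 2 of 14 that were not gained. The longer form TCACGTGA was in 2 of the 13 and in 75 of all promoters (1.31%). The promoters of HEXA and NEU1 are shown because they hold these letters, given in capitals, and a match is a description of sequence and not a measured binding site. Other elements were searched in the same way. The sterol element TCACNCCAC was in 1 of 8 gained and 1 of 12 other promoters of the sterol list, and the heat shock element in 0 of 8 gained and 4 of 24 other promoters of the chaperone list.
HEXA, chr7:60878281-60878530, plus strand: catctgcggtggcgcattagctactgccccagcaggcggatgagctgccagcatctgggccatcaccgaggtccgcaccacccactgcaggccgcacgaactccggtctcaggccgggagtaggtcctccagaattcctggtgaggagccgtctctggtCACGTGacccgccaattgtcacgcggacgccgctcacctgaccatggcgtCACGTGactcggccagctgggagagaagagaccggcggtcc
NEU1, chr7:23958660-23958909, minus strand: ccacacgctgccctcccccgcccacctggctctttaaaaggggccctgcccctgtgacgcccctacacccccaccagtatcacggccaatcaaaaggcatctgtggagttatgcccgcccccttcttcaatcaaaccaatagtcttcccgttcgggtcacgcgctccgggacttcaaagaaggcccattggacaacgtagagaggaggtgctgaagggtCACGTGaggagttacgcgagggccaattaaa

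Enzymes of sterol synthesis were gained in IT. Of 22 tested members of the sterol and fatty acid list 9 were gained and none lost, with a median of 0.58. MSMO1, which removes methyl groups from the sterol ring, went from 23.6 to 171 FPKM and was at 586 in TE, a fold over morulae of 7.27 (6.80 to 7.78). FDFT1 and SQLE, the enzymes that make and oxidize squalene, went from 6.33 to 33.2 and from 2.71 to 11.3 FPKM. IDI1, an isomerase of the isoprenoid units, went from 42.3 to 138 FPKM. DHCR7, which completes cholesterol, went from 0.563 to 4.18 FPKM, and INSIG1, the sterol sensor that restrains the pathway, from 1.02 to 8.05. The remaining 3 were MVD, HSD17B7 and ACAT2. The list summed to 292 FPKM in morulae, 613 in IT and 1680.3 in TE.

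Genes of glycolysis and of the actin cytoskeleton were gained alongside. In the glycolysis list 7 of 17 tested members were gained and 1 lost, with a median of 0.77. LDHA, which makes lactate, went from 27.1 to 110.2 FPKM and PGD, of the pentose phosphate branch, from 11.9 to 46.6. The aldolase ALDOA and the enolase ENO1 were gained to 50.3 and 325 FPKM. PDK3, an X-linked inhibitor of pyruvate dehydrogenase, was lost from 10.4 to 3.51 FPKM, while its relative PDK4 was gained from 0.587 to 2.18. Of the 30 tested keratin and actin genes 11 were gained and 1 lost, with a median of 0.73. All 4 annexins of this list, which bind membranes in the presence of calcium, were gained, ANXA1 from 40.2 to 100.3 FPKM, ANXA2 from 331 to 674, ANXA5 from 9.79 to 55.4 and ANXA6 from 1.62 to 9.70. ANXA2 was at 2968 FPKM in TE. MYL9, a light chain of non-muscle and smooth muscle myosin, went from 15.2 to 77.0 FPKM, and the actin-severing protein CFL1 from 77.4 to 185. In the list of cell junctions 1 of 26 tested members was gained, the desmosomal cadherin DSG2, and 3 were lost. The lost ones included CLDN1 of tight junctions and the polarity protein PARD6B, and the list median was 0.00. With median-ratio scaling 2 were gained and 1 lost, PARD6B no longer being past the limit, and with an equal sum 0 were gained and 4 lost. Members of the list of lipoprotein, retinoid and nutrient uptake genes went both ways. The apolipoprotein APOA2 went from 22.2 to 130.3 FPKM and the fatty acid carrier FABP3 from 429 to 969. FABP5 was lost from 83.7 to 33.9 FPKM and the transferrin receptor TFRC from 27.4 to 6.53. That list had 4 gained and 2 lost of 15 tested.

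**Figure D3:**
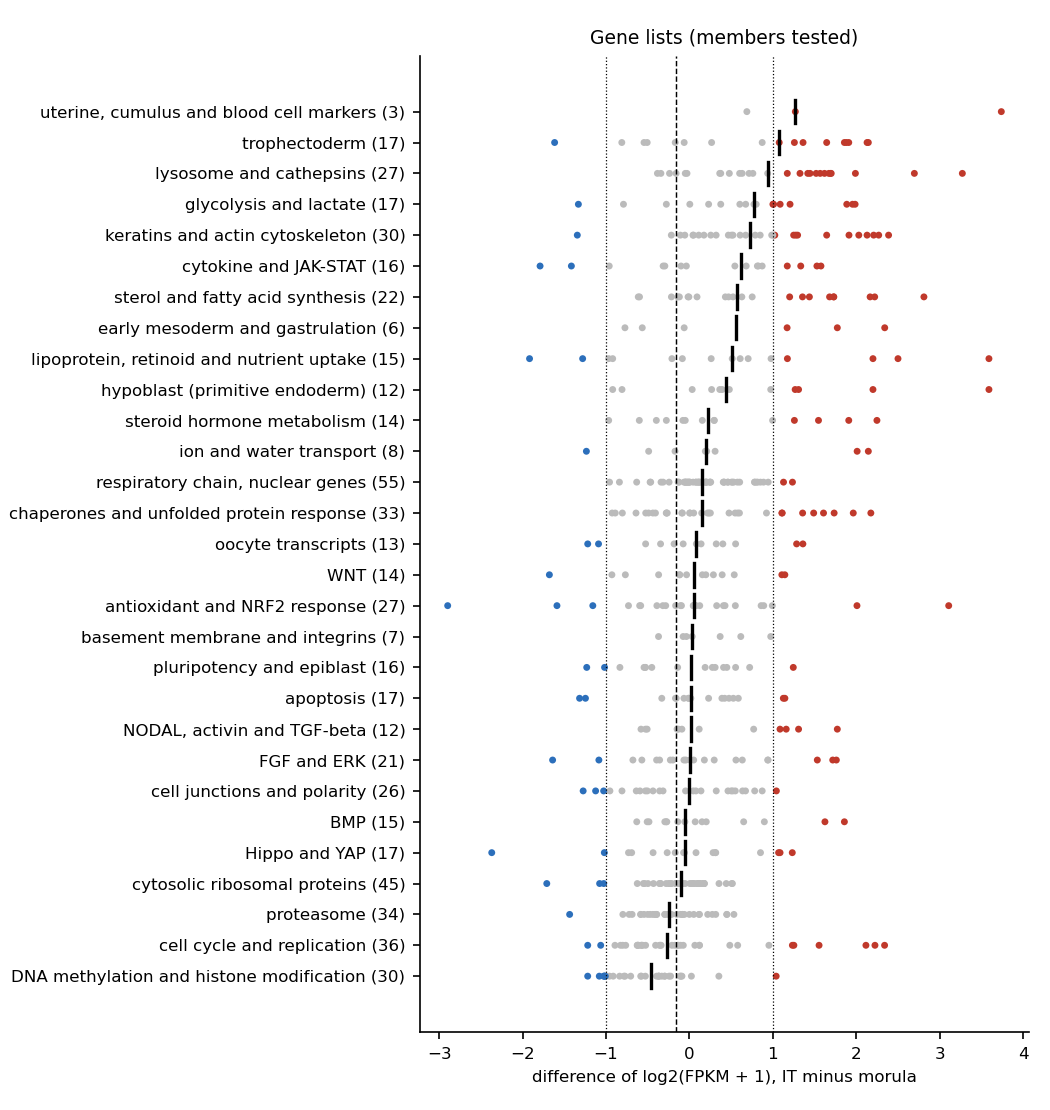
Difference of log2(FPKM + 1), IT minus morula, for each tested member (points; red gained, blue lost, grey neither) of 29 gene lists, with the list median as a black bar and the number tested in brackets. The dashed line marks the median of all tested transcripts (-0.16) and the dotted lines the limits; the trophectoderm, lysosome and glycolysis bars lie farthest to the right among lists of more than 3 members.

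Of 33 tested chaperone and unfolded protein genes 8 were gained and none lost, with a median of 0.15. DNAJB1, a partner of HSP70, went from 85.8 to 288 FPKM and was at 25.6 in TE. BAG3, another partner, went from 10.6 to 44.3 FPKM and HSPH1 from 71.6 to 185, with 7.33 and 65.01 in TE. HSPB1, a small heat shock protein, went from 0.488 to 5.71 FPKM. ZFAND2A, a zinc finger protein induced by arsenite and proteasome stress, went from 15.5 to 142 FPKM and was at 16.5 in TE. The other 4 were HERPUD1, PDIA6, CHAC1 and CRELD2, which belong to the response of the endoplasmic reticulum. In the cell cycle list 6 of 36 tested members were gained and 2 lost, with a median of -0.27. Of the gained ones 5 are known for restraining division, GADD45G from 12.04 to 64.9 FPKM, GADD45B from 8.62 to 43.9, GADD45A from 8.35 to 21.3, and the inhibitors CDKN1C from 4.97 to 24.8 and CDKN1A from 0.601 to 3.70. CCND3, a cyclin of the first gap phase, was also gained, from 3.98 to 10.7 FPKM. DNAJB1, BAG3, HSPH1, ZFAND2A, GADD45B, GADD45G and the immediate early genes FOS, JUN and IER2 were lower in TE than in IT, while HSPB1, GADD45A, CDKN1A, HERPUD1 and CHAC1 were higher in TE, at 9.02, 34.3, 14.96, 40.6 and 15.5 FPKM. Embryos of the IT and TE libraries were both cut, whereas morulae were taken whole, and the part of handling in these values was not tested.

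Regulators of chromatin had the lowest list median. Of 30 tested genes of DNA methylation and histone modification 1 was gained and 6 were lost, with a median of -0.46. DNMT1, the maintenance methyltransferase, went from 28.7 to 13.03 FPKM after 53.6 at the 8-cell stage, a fold of 2.20 lower (2.07 to 2.34). The acetyltransferases EP300 and KAT2B went from 8.01 to 2.87 and from 3.62 to 1.27 FPKM. The demethylases KDM1A and KDM5A went from 22.2 to 10.4 and from 5.89 to 2.41 FPKM, and SUZ12, a core subunit of the Polycomb complex PRC2, from 34.0 to 16.4. HDAC3, a deacetylase, was the gained one, from 5.69 to 12.8 FPKM. With median-ratio scaling 1 member of the list was lost, and with an equal sum 9. All tested transcripts from 4000 to 8000 bases had a median of -0.29. Of the lost members, DNMT1, EP300, KAT2B, KDM5A and SUZ12 are of that length and KDM1A is shorter. The part of length in this list was not tested. The large housekeeping lists stood near the centre, with 2 of 55 respiratory chain genes gained and none lost, 3 of 45 ribosomal protein genes lost and 1 of 34 proteasome genes lost. The 3 ribosomal ones, RPL36A, RPL26L1 and RPL10L, have near-identical copies elsewhere in the genome, so their counts are uncertain. No member of the basement membrane and integrin list was gained or lost, of 7 tested.

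Other lists gave small counts. In the antioxidant list 2 of 27 were gained and 3 lost, GSTO1 going from 6.50 to 29.2 FPKM and HMOX1, heme oxygenase, from 58.4 to 25.6. In the steroid and prostaglandin list 4 of 14 were gained and none lost, among them PTGS2, the inducible cyclooxygenase, from 37.96 to 113 FPKM. In the ion and water transport list 2 of 8 were gained and 1 lost, and in the apoptosis list 2 of 17 and 2. Oocyte transcripts had 2 of 13 gained and 2 lost. The gained ones were H1-8, the linker histone of oocytes, from 3.82 to 11.4 FPKM, and BTG4, which drives clearance of maternal RNA, from 2.72 to 8.06, after 1971 and 6335 FPKM in oocytes. The lost ones were ZP4, from 2.56 to 0.672 FPKM, and WEE2, from 4.54 to 1.38. Of 7 genes that mark uterine, cumulus or blood cells, 3 were tested and 2 were gained. HBB, of red cells, went from 0.160 to 1.80 FPKM on 3 and 31 fragments, a ratio of 11.2 with a counting interval of 3.50 to 57.4, and the other was FCER1G. In IT of the clones, which were grown in culture, FCER1G was at 1049 FPKM in NT-D and 417 in NT-LW. HBB was at 10.9 and 21.3 FPKM there. The list summed to 2.76 FPKM in morulae, 37.1 in IT and 682 in TE, of which FCER1G made 1.55, 33.0 and 601 and AIF1, of macrophages, 1.02, 2.26 and 81.2, and its part in the results was not tested.

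The X chromosome stood out among the lost transcripts. Of 203 tested X-linked transcripts 56 were lost (27.6%) and 8 gained, whereas of 5544 autosomal ones 358 were lost (6.46%) and 429 gained. Single autosomes had 3.25% to 10.2% lost. The median difference was -0.64 for X-linked and -0.15 for autosomal transcripts, and with median-ratio scaling 40 X-linked transcripts were lost. The lost ones included RAP2C, a small GTPase, from 26.4 to 3.42 FPKM, and genes used by every cell, such as the cohesin subunit STAG2 from 34.9 to 11.9, the remodeller ATRX from 28.1 to 11.98 and PDHA1, a subunit of pyruvate dehydrogenase, from 94.8 to 34.6. XIAP, an inhibitor of caspases, went from 11.5 to 4.28 FPKM. This grouping by chromosome, with STAG2, ATRX, PDHA1 and the pair that follows, was chosen after the values were seen. Within each class of length the X-linked share was the higher, at 18.9% against 5.04% under 2000 bases, 24.7% against 6.10% from 2000 to 4000, and 36.4% against 7.77% above that. At the step before, from the 8-cell stage to the morula, 12.4% of X-linked and 12.8% of autosomal transcripts were lost. In the male clones the same step from morula to IT had 36.2% of X-linked and 35.1% of autosomal transcripts lost in NT-D, and 26.8% and 27.7% in NT-LW. From the IV-D morula to TE, which shares the morula library, the values were 37.8% and 23.7%.

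A gene pair with 1 copy on each sex chromosome moved in opposite directions. EIF1AX, an X-linked initiation factor of translation, went from 151 to 57.5 FPKM, with 30.4 in TE. EIF1AY, its Y-linked copy and the only Y-linked gene of the table, went from 9.74 to 27.6 FPKM, with 26.7 in TE, a fold of 2.83 (2.58 to 3.10). In NT-D embryos EIF1AY was at 21.5 and 37.2 FPKM in morulae and IT, and in NT-LW embryos at 49.2 and 37.4. The 2 genes are alike in sequence, so reads may be split between them. IV-D embryos of both sexes were pooled without sexing, so the share of males in each library and a change of X-linked RNA per female embryo cannot be told apart here.

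**Figure D4:**
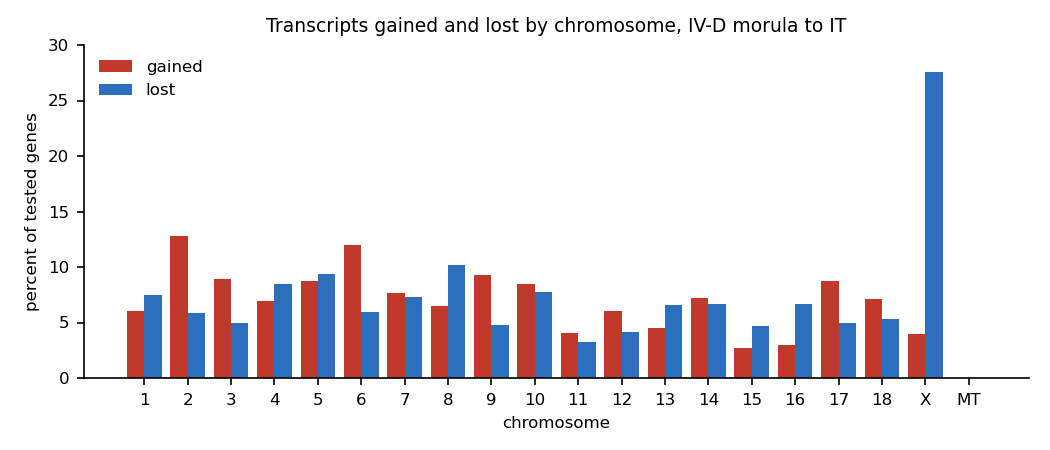
Percent of tested transcripts gained (red) and lost (blue) from IV-D morula to IT, by chromosome, with 1 library a side (MT, mitochondrial genome, 0 of either). The X bar of 27.6% lost stands above those of all autosomes, which end at 10.2%.

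The same step was read in the clones, whose libraries are independent of the IV-D ones. From morula to IT 9.31% of the 7863 transcripts tested in NT-D were gained and 35.1% lost, and in NT-LW 9.1% and 28.1% of 7409. This balance depended on the scaling, since with median ratios 1603 were gained and 1265 lost in NT-D, and 1275 and 892 in NT-LW. All tested transcripts had a median difference of -0.64 among NT-D and -0.51 among NT-LW clones, the values against which the clone medians below are to be read. Of the 550 transcripts gained in IV-D, 191 were gained in NT-D (34.7%, and 26.1% of the NT-D list) and 220 in NT-LW (40.0%, and 32.6% of that list). Both clone groups gained 149 of them, among them MDK, UPP1, APOA1, CTSD and MSMO1. Of the 542 lost in IV-D, 304 were lost in NT-D (56.1%, and 11.03% of the NT-D list) and 326 in NT-LW (60.1%, and 15.7%), with 226 lost in both. Each share of an IV-D set called in 1 clone group was above that of all transcripts in the same clone group. The share of all transcripts gained or lost in both clone groups was not counted, so 149 and 226 are a description only. The gained set had a median difference of 0.52 among NT-D and 0.66 among NT-LW clones, and that of the lost set -1.10 and -1.19. By group, the lysosome list had medians of 1.69 in NT-D and 1.24 in NT-LW and the sterol list 0.94 and 1.26, positive in all 3 groups. The glycolysis list, at 0.77 in IV-D, had -0.56 and -0.33, at or above the medians of all tested in the clones. The median of the mesoderm list was 0.55 in IV-D, and -1.38 and -1.29 in the clones, and that of the cytokine list 0.61 against -1.39 and -0.68, the last near the median of all tested in NT-LW. Most tested mesoderm members were named by the study for their level in IV-D IT, so that contrast is not independent of the choice. With 1 library per stage in each group, none of these differences between groups was tested.

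**Figure D5:**
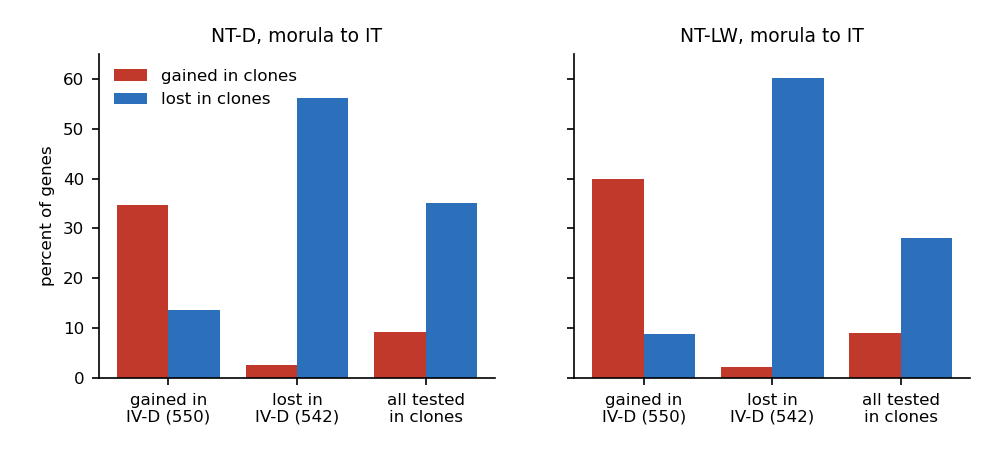
Percent of transcripts gained (red) and lost (blue) from morula to IT in NT-D (left) and NT-LW (right) clones, for the 550 transcripts gained in IV-D, the 542 lost in IV-D and all tested in each clone group, 1 library per stage. Of the transcripts gained in IV-D, 34.7% and 40.0% were gained in the clones, against 9.31% and 9.1% of all.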

How the data were processed

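Libraries were made by the authors from SMART-Seq v4 cDNA. Mapping used HISAT2 2.0.4 against Sscrofa11.1, gene counting used HTSeq 0.9.1, DESeq is named in the submitters' processing notes, and the deposited values are FPKM. From the deposited FPKM, whole fragments were recovered for 100% of 8603 genes (tolerance 2e-07 of the value), which gave depths of 21077697 fragments for IV-D morulae and 19399318 for IT. A further 21 libraries of the series gave levels at other stages.

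Symbols were known for 7371 genes and 1 RefSeq position for 6910. Calls used log2(FPKM + 1), a limit of 1 and a minimum of 1 FPKM. Fold intervals were exact conditional binomial intervals on fragments. The calls and the recovery were tested on simulated data. No replicate, hence no test between stages, was analysed here. Reads were not stated to be counted by strand, so overlapping genes may share them. Some genes and sequences are not reported here.

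Named genes were the 15 largest gains and losses with a symbol and at least 10 FPKM, those going from under 1 to at least 10 or the reverse, called members of 29 lists, the markers, and genes the study names. The members, lists and limits were chosen with earlier results of these data known. Alternatives were a pseudocount of 0.1, minima of 5 and none, a limit of 2, scaling to a sum of 1000000, by median ratio or by trimmed mean (30% of log ratios and 5% of levels left out at each end), an exact binomial test on fragments with adjusted p under 0.005, and limits of 10 and 0.5 for on and off. The work used pandas 2.3.3, scipy 1.17.1, numpy 2.4.6, pysam 0.24.0 and matplotlib 3.10.9 under Python 3.11.15.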

Additional observations from a re-analysis of the deposited data

Results flagged for a closer look

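The same step went in opposite directions in IV-D and in both clone groups for some transcripts, which was not tested since each group had 1 library per stage. There were 29 transcripts gained in IV-D and lost in NT-D and NT-LW (5.27% of 550), and 6 lost in IV-D and gained in both (1.11% of 542). Of all transcripts tested in the clones, 35.1% were lost in NT-D and 28.1% in NT-LW, and 9.31% and 9.1% were gained. Those are shares in single clone groups, and the share of all transcripts called in both was not counted. No excess or lack can therefore be read from the counts of 29 and 6. OSR2 was at 2.22 FPKM in IV-D morulae and 15.3 in IT, against 3.82 and 0 in NT-D and 2.56 and 0.0757 in NT-LW. The study named OSR2 for its high level in IV-D IT, so that contrast is not independent of the choice. FOS was at 23.1 and 68.8 FPKM in IV-D, 12.6 and 3.24 in NT-D, and 28.7 and 2.57 in NT-LW. DNAJB1 was at 85.8 and 288 FPKM in IV-D, 41.9 and 15.1 in NT-D, and 51.7 and 21.2 in NT-LW. CCN2, CFL1 and H1-8 were also of this kind. In the reverse group SYCP3, a protein of the meiotic chromosome axis that was chosen after its values were seen, was at 34.8 and 13.05 FPKM in IV-D, 0.572 and 24.8 in NT-D, and 1.58 and 23.6 in NT-LW.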

How the results depend on the processing

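The counts gained and lost, 550 and 542, became 91 and 53 with a limit of 2 on the log2 scale and 861 and 1031 with the binomial test, which compares the libraries and not the stages. The lost count was 820 with a pseudocount of 0.1, 838 after scaling to a sum of 1000000 and 349 with median-ratio scaling. The 18 transcripts switched on and 16 switched off became 6 and 6 with a limit of 10 FPKM where on, and 7 and 6 with a limit of 0.5 where off. With median-ratio scaling the share of gained transcripts also gained was 50.7% for NT-D and 51.8% for NT-LW, that of lost ones also lost 32.1% and 45.8%, and the transcripts going opposite ways in IV-D and both clone groups were 14 and 10. With a pseudocount of 0.1 the lost share in NT-D was 64.0%. The X-linked and opposite-direction alternatives were added after the data were seen. Of the 164 named genes called, 21 were no longer past the limit under at least 1 scaling or pseudocount, and 0 changed direction. Beside those named with their results, DNMT1, SUZ12, KDM1A, KDM5A, KAT2B, FRS2, HMOX1, RPL36A and RPL26L1 were among them as losses, and ANXA2, ENO1, DSG2 and HDAC3 as gains. The gained counts of the trophectoderm, lysosome, sterol, chaperone and cytoskeleton lists, and the X-linked lost count, moved by less than 1.5 times under all 5 alternatives run. No paired analysis was possible because each stage had 1 library. Depth limits transcripts with few fragments, and nothing here measures variation between embryos.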
